A study of Homo sapiens with 6 samples.

Results

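The 33 genes described here make, interconvert or carry amino acids in HCT116, an established human colorectal cancer cell line. They were taken by symbol from a fixed list, out of 26255 gene symbols with a value, and were sorted by role into 9 serine and one-carbon genes, 12 other amino acid enzymes and 12 transporters of the solute carrier (SLC) families. That list was written with earlier results of these data known. RNA was sequenced from 3 groups of 2 libraries each: parent HCT116 cells, HCT116 cells given siLINC01534-1, and HCT116 cells given siLINC01534-2. Both small interfering RNAs (siRNAs) were designed against LINC01534, a long noncoding RNA, and the study asked what changes in colorectal cancer cells when that RNA is silenced. The labels give no transfection, time or control siRNA for the parent cells, so a response to transfection cannot be told apart from a response to either siRNA. All values come from 1 cell line, and nothing in the labels says whether the 2 libraries of a group came from separate cultures, so the p-values measure the spread between these libraries, which may be technical.

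Cells build serine from a glycolytic intermediate, and serine gives up a carbon unit to folate, in the cytosol or in mitochondria, for the synthesis of purines, thymidylate and methionine. Aminotransferases move nitrogen between glutamate, aspartate and alanine, and asparagine synthetase makes asparagine from aspartate and glutamine. Carriers of the SLC families bring in what the cell does not make, among them cystine, which is reduced to cysteine and built into glutathione. Many of these genes are known targets of the amino acid response, in which the transcription factor ATF4 acts at promoter elements that pair a C/EBP site with an ATF site.

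The expression level was measured in FPKM, the number of sequenced fragments scaled by transcript length and by library size, which the authors computed, and it was tested as log2(FPKM + 1) with limma over 12203 genes with a mean of at least 1 FPKM. LINC01534 itself was below that limit. It stood at 0.285 and 0.571 FPKM in parent cells, at 0 and 0.283 in the libraries labelled siLINC01534-1 and at 0.660 and 0.551 in those labelled siLINC01534-2, and the siLINC01534-2 values were not below both of parent. Such low values rest on few reads, so a fall of LINC01534 was not detectable at this depth, and the groups are called by their labels. The steps between low values put the depth at about 8650000 to 10400000 reads a library, read from 8 to 64 genes each, or 15.6 to 18.7 reads for each FPKM of a transcript of 2000 bases, which limits the precision of genes near 1 FPKM. Of 8 colon epithelium markers 6 had a mean of at least 1 FPKM, with VIL1 and CDX1 at or near 0, and the summed level of the list was 3460 to 3520 FPKM in parent cells, 2930 in both libraries with siLINC01534-1 and 3340 to 3520 with siLINC01534-2. No leukocyte or endothelial marker reached 1 FPKM, and of the fibroblast markers only COL1A1 did, at 3.02 to 5.79 FPKM. The part of these marker levels in the results below was not tested.

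Of the 33 genes, 30 passed the filter on low values. BCAT1, the cytosolic branched-chain aminotransferase, was listed at 0 in all 6 libraries, CBS, which makes cystathionine, reached at most 0.0916 FPKM, and ALDH1L2, a mitochondrial folate dehydrogenase, lay between 0.0629 and 0.19 FPKM. In parent cells the tested genes spanned from about 1 FPKM for SLC43A1 and SLC1A4 to more than 200 for SLC7A5, a leucine and large neutral amino acid carrier, which had 238 and 246 FPKM. MTHFD2, SHMT2, PYCR1, SLC3A2, SLC38A2 and SLC1A5 also had more than 150 FPKM in both parent libraries, as the plot of levels by library shows.

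**Figure D1:**
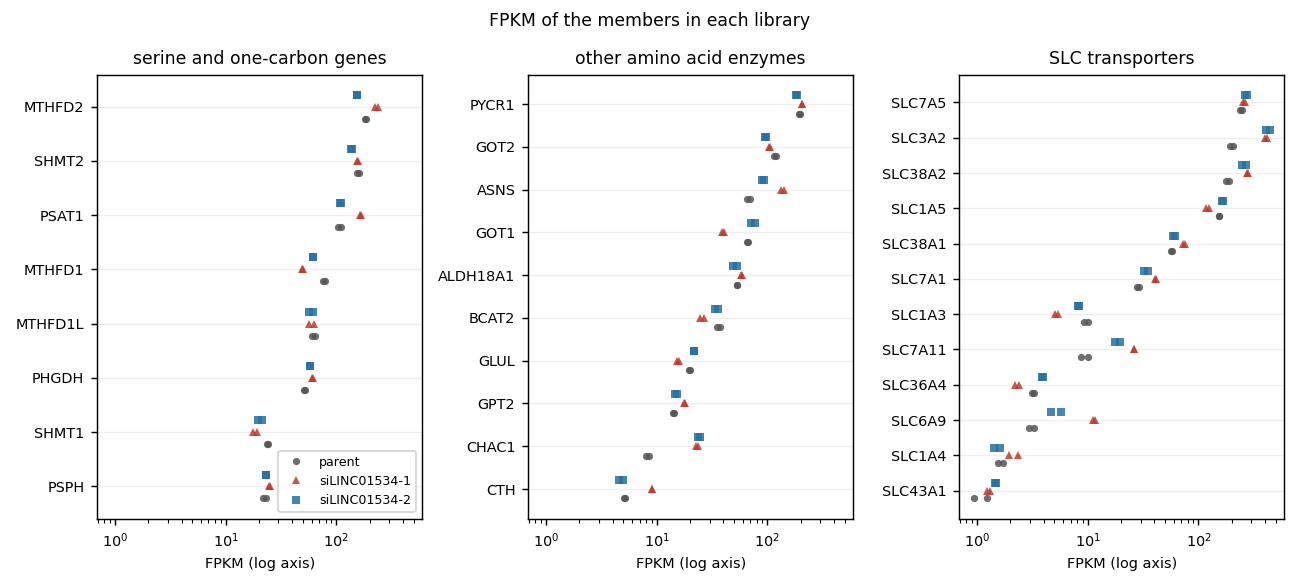
FPKM of the 30 tested genes in each of the 6 libraries (horizontal log axis), sorted within each class by the mean of the parent libraries. Grey circles are parent cells, red triangles siLINC01534-1 and blue squares siLINC01534-2, with 2 libraries each; for CHAC1, SLC3A2 and SLC7A11 all 4 siRNA libraries lie well above the 2 parent libraries, and for CTH and PSAT1 the 2 siLINC01534-1 libraries lie well above the other 4.

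When the mean of the siRNA groups was set against parent, 13 of the 30 tested genes were higher and 7 were lower at an adjusted p under 0.05, and 10 did not pass. Over all tested genes the shares were 17.1% higher and 20.1% lower. At a mean of at least 5 FPKM, 20 of 27 members and 45.4% of all genes passed in either direction. As the list was written with earlier results known, the members are not an independent set to compare with those shares. Against parent, 8 of the 20 called genes were higher with each siRNA (PHGDH, ASNS, CHAC1, SLC7A11, SLC7A1, SLC3A2, SLC38A2 and SLC6A9). Only MTHFD1 and GOT2 were lower with each. PSAT1, CTH, GPT2, SLC38A1, SHMT1, GOT1, BCAT2 and SLC1A3 passed with siLINC01534-1 only, SHMT2 with siLINC01534-2 only and SLC7A5 with neither. In a bulk library, a change in the number of cells that express a gene cannot be told apart from a change per cell. The increases fell mostly among the carriers: 7 of 12 SLC transporters were higher and 1 was lower, with a median log2 change of 0.20, where the median of all tested genes was -0.01. Among transporters with a mean of at least 5 FPKM that median was 0.38. Among 10 tested enzymes outside the serine and one-carbon class 4 were higher and 3 were lower, with a median of 0.02. The 8 tested serine and one-carbon genes went both ways, 2 higher and 3 lower, with a median of -0.01. All 4 siRNA libraries lay above both parent libraries for 11 of the 30 genes, against 19.0% of all tested genes, and below both for 4, against 19.3%. In mean FPKM, CHAC1, SLC7A11, SLC6A9 and SLC3A2 were more than 2-fold higher with the siRNAs, as were 2.09% of all tested genes, and no member was more than 2-fold lower. Without the second parent library the members past the threshold were 12 instead of 20, with 9 higher and 3 lower, while over all tested genes the share called in either direction went from 37.2% to 18.2%. When the 4 siRNA libraries were pooled into 1 group, which puts their own differences into the error, CHAC1, SLC7A11, SLC3A2 and SLC38A2 passed, 4 of the 30, as did 2.96% of all tested genes.

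Among the largest changes were those of genes for the uptake of cystine and the breakdown of glutathione. CHAC1, an enzyme that cleaves glutathione in the cytosol (chr15:41245160-41248710, GRCh37), stood at 8.47 and 7.98 FPKM in parent cells, at 23.8 and 22.4 with siLINC01534-1 and at 23.6 and 24.4 with siLINC01534-2. Every siRNA library was above both parent libraries, and the 2 siRNAs overlapped. The mean of the siRNA libraries was 2.86-fold that of parent, with a log2 change of 1.41 ± 0.05 (SE) and an adjusted p of 9.88e-05. The difference between the siRNAs was -0.05 on the log2 scale (95% interval -0.18 to 0.09, adjusted p = 0.501).

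SLC3A2, the heavy chain that brings several light-chain carriers to the cell surface (chr11:62623476-62656352), had 194 and 205 FPKM in parent cells, 417 and 400.3 with siLINC01534-1 and 407 and 439 with siLINC01534-2. Here too the siRNA libraries were all above parent and overlapped each other. The siRNA mean was 2.08-fold that of parent (log2 change 1.05 ± 0.04, adjusted p = 1.54e-04), and the siRNAs differed by -0.05 (95% interval -0.18 to 0.08, adjusted p = 0.480). SLC7A11 (chr4:139085251-139163503), the light chain that pairs with SLC3A2 to exchange cystine for glutamate, went from 10 and 8.64 FPKM in parent cells to 26.1 and 26.0 with siLINC01534-1 and 17.6 and 19.8 with siLINC01534-2. The groups did not overlap, and siLINC01534-1 had the highest values. SLC7A11 rose by 1.39 ± 0.08 with siLINC01534-1 (adjusted p = 2.18e-04) and by 0.93 ± 0.08 with siLINC01534-2 (adjusted p = 0.00271), a difference of 0.46 between the siRNAs (adjusted p = 0.00933). That difference was lost without either siLINC01534-1 library or without the first siLINC01534-2 library, with adjusted p-values up to 0.0593. SLC7A5, another light chain of SLC3A2, had 238 and 246 FPKM in parent cells, 263 and 254 with siLINC01534-1 and 261 and 272 with siLINC01534-2. Its log2 change of 0.12 ± 0.03 had an adjusted p of 0.0391, which was lost when any 1 of the 6 libraries was left out (up to 0.183), and its reads can be shared with the near-identical copies SLC7A5P1 and SLC7A5P2, at 3.59 to 4.93 and 1.16 to 1.57 FPKM. SLC7A5 moved far less than its heavy chain, and its FPKM exceeded that of SLC3A2 in both parent libraries and was below it in all 4 siRNA libraries.

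**Figure D2:**
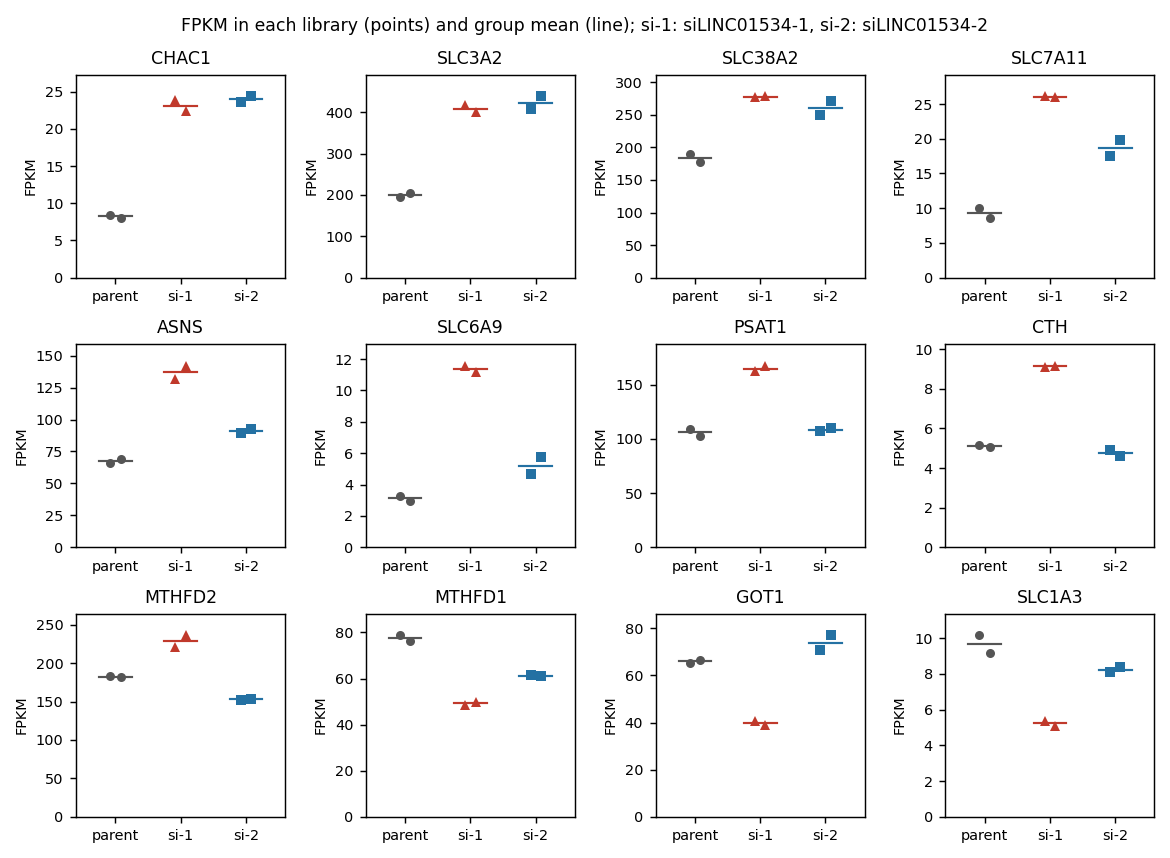
FPKM of 12 genes in each library (points) with the mean of each group (line), from 0 on each vertical axis. Parent cells, siLINC01534-1 (si-1) and siLINC01534-2 (si-2) have 2 libraries each; CHAC1, SLC3A2 and SLC38A2 reach like levels with both siRNAs, ASNS, SLC7A11 and SLC6A9 are higher with siLINC01534-1 than with siLINC01534-2, and PSAT1 and CTH lie near parent with siLINC01534-2.

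Several carriers of glycine and of neutral and basic amino acids were also higher. SLC6A9, the plasma membrane glycine carrier GlyT1 (chr1:44457172-44497139), had 3.27 and 2.96 FPKM in parent cells, 11.6 and 11.2 with siLINC01534-1 and 4.68 and 5.74 with siLINC01534-2. The 3 groups did not overlap. It rose by 1.59 ± 0.10 on the log2 scale with siLINC01534-1 (adjusted p = 2.30e-04), 3.66-fold in mean FPKM, and by 0.59 ± 0.10 with siLINC01534-2 (adjusted p = 0.0144), 1.67-fold. The second of these calls was lost without either parent library or without the second siLINC01534-2 library, with adjusted p-values up to 0.0865, while the difference between the siRNAs, 1.00 ± 0.10, had an adjusted p of 0.00124. SLC6A9 overlaps CCDC24 on the opposite strand, which had 4.41 to 7.59 FPKM, and the strand setting used for the FPKM is not given in the sources used here, so reads of the 2 genes may not have been separated.

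SLC38A2, a sodium-coupled carrier of glutamine and other neutral amino acids (chr12:46751971-46766556), stood at 189.6 and 178 FPKM in parent cells, 277 and 278 with siLINC01534-1 and 249.6 and 271 with siLINC01534-2. All siRNA libraries were above parent, by 1.46-fold in the mean (log2 change 0.55 ± 0.05, adjusted p = 9.27e-04), and the siRNAs differed by 0.09 (95% interval -0.04 to 0.23, adjusted p = 0.209). SLC7A1, a carrier of arginine and lysine (chr13:30083551-30169825), had 28.9 and 27.7 FPKM in parent cells, 41.2 and 40.4 with siLINC01534-1 and 32.3 and 35.3 with siLINC01534-2. The groups did not overlap. SLC7A1 rose by 0.38 ± 0.05 for the mean of both siRNAs (adjusted p = 0.00296), and its rise with siLINC01534-2 alone, 0.25, was lost without any 1 library other than the first siLINC01534-2 library, with adjusted p-values up to 0.129. SLC38A1, a close relative of SLC38A2, stood at 58.1 and 56.5 FPKM in parent cells, 75.3 and 73.0 with siLINC01534-1 and 58.4 and 61.5 with siLINC01534-2. It rose by 0.36 with siLINC01534-1 (adjusted p = 0.00162), and its log2 change with siLINC01534-2 was 0.06 (adjusted p = 0.324).

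No SLC1 family carrier, for acidic or small neutral amino acids, passed on the higher side against parent. SLC1A3, a glutamate and aspartate carrier (chr5:36596690-36688436), had 10.2 and 9.16 FPKM in parent cells, 5.36 and 5.08 with siLINC01534-1 and 8.10 and 8.35 with siLINC01534-2. All 4 siRNA libraries were below both parent libraries, and those with siLINC01534-1 were the lowest. SLC1A3 was the only one of the 12 transporters in the list that passed on the lower side over both siRNAs, with a log2 change of -0.49 ± 0.06 (adjusted p = 0.00286). With siLINC01534-1 the log2 change was -0.77 (adjusted p = 6.85e-04) and with siLINC01534-2 it was -0.21 (adjusted p = 0.0867). SLC1A5, a carrier of glutamine, alanine, serine and cysteine, had 154 and 153 FPKM in parent cells, 125 and 117 with siLINC01534-1 and 162 and 168 with siLINC01534-2. It fell with siLINC01534-1 (-0.34, adjusted p = 0.00211) and had a log2 change of 0.10 with siLINC01534-2 (adjusted p = 0.140), a difference of -0.44 between the siRNAs (adjusted p = 0.00113). SLC36A4, a carrier of proline and tryptophan, had 3.29 and 3.17 FPKM in parent cells, 2.22 and 2.38 with siLINC01534-1 and 3.84 and 3.94 with siLINC01534-2. Its log2 change was -0.36 with siLINC01534-1 (adjusted p = 0.0144), lost without the first parent or the first siLINC01534-1 library (up to 0.0573), and 0.21 with siLINC01534-2 (adjusted p = 0.113). SLC1A4, which carries alanine, serine and cysteine, and SLC43A1, which carries large neutral amino acids, were at 1.43 to 2.32 and 0.937 to 1.49 FPKM and passed the threshold in none of the contrasts.

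Among the enzymes, ASNS, which makes asparagine (chr7:97480989-97501854), stood at 65.9 and 69.4 FPKM in parent cells, at 132 and 142 with siLINC01534-1 and at 89.5 and 92.9 with siLINC01534-2. The 3 groups did not overlap. ASNS rose 2.02-fold with siLINC01534-1 (log2 change 1.01 ± 0.05, adjusted p = 1.39e-04) and 1.35-fold with siLINC01534-2 (log2 change 0.43 ± 0.05, adjusted p = 0.00590), and the siRNAs differed by 0.58 ± 0.05 (adjusted p = 9.09e-04).

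Of the serine synthesis genes, PSAT1 and PHGDH rose with siLINC01534-1 and PSPH did not pass. PSAT1, the aminotransferase of that pathway (chr9:80912041-80945009), had 109 and 103 FPKM in parent cells, 162 and 167 with siLINC01534-1 and 107 and 110.2 with siLINC01534-2. The siLINC01534-1 libraries were clear of the rest, while the siLINC01534-2 libraries lay within the range of parent or just above it. PSAT1 rose by 0.63 ± 0.04 with siLINC01534-1 (adjusted p = 2.85e-04), its log2 change with siLINC01534-2 was 0.03 ± 0.04 (95% interval -0.07 to 0.14, adjusted p = 0.633), and the siRNAs differed by 0.60 ± 0.04 (adjusted p = 4.50e-04). PHGDH, the dehydrogenase that commits carbon to serine, had 50.8 and 52.1 FPKM in parent cells, 60.7 and 61.0 with siLINC01534-1 and 58.2 and 57.4 with siLINC01534-2. It rose by 0.24 ± 0.03 with siLINC01534-1 (adjusted p = 0.00326) and by 0.17 ± 0.03 with siLINC01534-2 (adjusted p = 0.0233), where the latter call was lost without either parent library or either siLINC01534-2 library (up to 0.0974). PSPH, the phosphatase that releases serine, was at 21.7 to 25 FPKM in all libraries, and its log2 change of 0.09 did not pass (adjusted p = 0.153).

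The cytosolic folate enzymes MTHFD1 and SHMT1 were lower over both siRNAs. MTHFD1, which interconverts folate-bound carbon units in the cytosol (chr14:64854749-64930175), had 78.7 and 76.4 FPKM in parent cells, 48.5 and 50 with siLINC01534-1 and 61.4 and 61.2 with siLINC01534-2. All 4 siRNA libraries were below parent, and the 3 groups did not overlap. MTHFD1 fell with siLINC01534-1 (log2 change -0.64 ± 0.04, adjusted p = 1.75e-04) and with siLINC01534-2 (-0.33 ± 0.04, adjusted p = 0.00433), and held the call when any 1 library was left out. SHMT1, which moves the carbon unit from serine to folate in the cytosol (chr17:18231174-18266877), had 24.0 and 23.7 FPKM in parent cells, 19.3 and 17.6 with siLINC01534-1 and 21.5 and 19.8 with siLINC01534-2. Its log2 change was -0.36 with siLINC01534-1 (adjusted p = 0.00734), and with siLINC01534-2 it was -0.20 and did not pass (adjusted p = 0.0759). Over both siRNAs its log2 change was -0.28 ± 0.06 (adjusted p = 0.0136), a call lost without either parent library (up to 0.0858). MTHFD1 and SHMT1 overlap ZBTB25 and SMCR8 on the opposite strand, at means of 9.63 and 7.8 FPKM against 62.7 and 21 for the members, and MTHFD2 overlaps SLC4A5 in the same way, at 3.03 FPKM against 188.

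MTHFD2, the mitochondrial counterpart of MTHFD1 in handling methylene-folate (chr2:74413299-74444692), passed in opposite directions with the siRNAs. It had 184 and 182 FPKM in parent cells, 222 and 236 with siLINC01534-1 and 152 and 154 with siLINC01534-2. The parent libraries lay between the other groups, with no overlap. MTHFD2 rose by 0.32 ± 0.04 with siLINC01534-1 (adjusted p = 0.00207) and its log2 change with siLINC01534-2 was -0.25 ± 0.04 (adjusted p = 0.0120). The fall with siLINC01534-2 was lost without either parent library or either siLINC01534-2 library, with adjusted p-values up to 0.0692, whereas the difference between the siRNAs, 0.58 ± 0.04 (adjusted p = 4.26e-04), held in each of these fits. SHMT2, the mitochondrial partner of SHMT1, had 154 and 160.5 FPKM in parent cells, 154 and 156 with siLINC01534-1 and 136 and 138 with siLINC01534-2. Its log2 change was -0.02 with siLINC01534-1 (adjusted p = 0.646) and -0.20 with siLINC01534-2 (adjusted p = 0.0145), a call lost without the second parent library or either siLINC01534-2 library (up to 0.0684). For the mean of both siRNAs the log2 change of SHMT2 was -0.11 (adjusted p = 0.0340). This call was lost with upper quartile scaling (adjusted p = 0.0848) and with a replicate block (0.0549). The change was -0.1376 without the first parent library and -0.0835 without the second. MTHFD1L, which releases formate in mitochondria, was at 56.7 to 63.7 FPKM and passed in none of the contrasts.

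Since a ratio of 2 genes within a library does not depend on how libraries were scaled, the mitochondrial enzyme was also set over the cytosolic one in each library. MTHFD2 over MTHFD1 was 2.33 and 2.38 in parent cells, 4.57 and 4.72 with siLINC01534-1 and 2.48 and 2.51 with siLINC01534-2. SHMT2 over SHMT1 was 6.43 and 6.76 in parent cells, 7.99 and 8.91 with siLINC01534-1 and 6.33 and 6.97 with siLINC01534-2. In both pairs the siLINC01534-1 libraries had the highest ratios, and for SHMT2 over SHMT1 the siLINC01534-2 libraries overlapped parent. MTHFD1L over MTHFD1 was 0.771 and 0.835 in parent cells, 1.31 and 1.13 with siLINC01534-1 and 0.923 and 1.01 with siLINC01534-2. GOT2 over GOT1, the aspartate aminotransferases of mitochondria and cytosol, was 1.77 and 1.79 in parent cells, 2.54 and 2.71 with siLINC01534-1 and 1.36 and 1.22 with siLINC01534-2, one siRNA above parent and the other below it. These ratios are given with no test, and a ratio shows unequal change and not which gene moved.

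**Figure D3:**
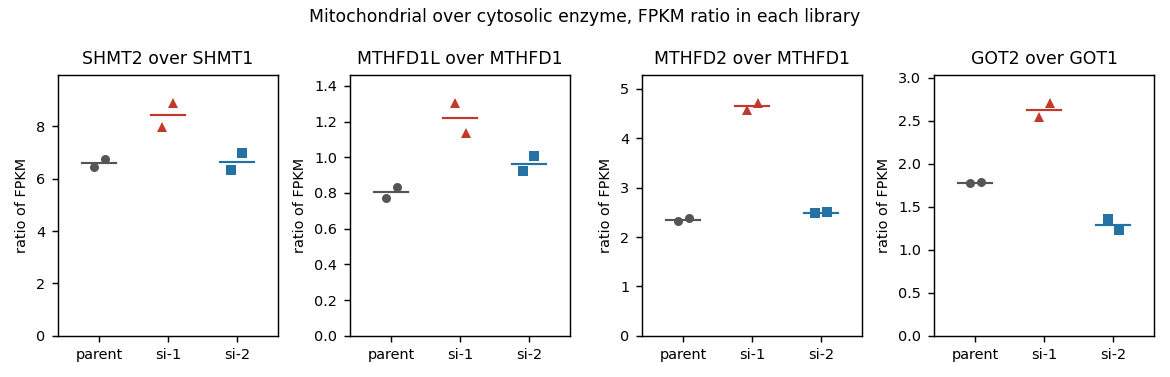
FPKM of a mitochondrial enzyme over that of its cytosolic partner in each library (points), with the mean of each group (line). MTHFD2 over MTHFD1 is 4.57 and 4.72 in the 2 siLINC01534-1 libraries and 2.33 to 2.51 in the other 4, and GOT2 over GOT1 lies above parent with siLINC01534-1 and below it with siLINC01534-2.

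The aminotransferases behind these ratios differed between the siRNAs. GOT1 (chr10:101156627-101190381), the cytosolic enzyme, had 65.4 and 66.5 FPKM in parent cells, 40.7 and 38.9 with siLINC01534-1 and 70.7 and 77.0 with siLINC01534-2. The siLINC01534-1 libraries were far below the other 4, and the siLINC01534-2 libraries were above parent. GOT1 had a log2 change of -0.71 ± 0.05 with siLINC01534-1 (adjusted p = 3.76e-04) and of 0.16 ± 0.05 with siLINC01534-2 (adjusted p = 0.0829), and its difference of -0.87 ± 0.05 between the siRNAs (adjusted p = 3.04e-04) was the widest among the 30 genes in the downward direction. For the mean of both siRNAs its log2 change of -0.28 ± 0.05 (adjusted p = 0.00744) was lost without either parent library (up to 0.062). GOT2 had 116 and 119 FPKM in parent cells, 104 and 105 with siLINC01534-1 and 96.2 and 94.3 with siLINC01534-2. It was lower with siLINC01534-1 (-0.17, adjusted p = 0.0113) and with siLINC01534-2 (-0.30, adjusted p = 0.00474), although the first of these calls was lost without the second parent library or the first siLINC01534-1 library (up to 0.055). GPT2, the mitochondrial alanine aminotransferase, stood at 14.0 and 14.2 FPKM in parent cells, 18.2 and 17.7 with siLINC01534-1 and 15.4 and 14.7 with siLINC01534-2, and rose by 0.32 with siLINC01534-1 (adjusted p = 0.00328). BCAT2, the mitochondrial branched-chain aminotransferase, had 35.1 and 37.5 FPKM in parent cells, 26.6 and 24.8 with siLINC01534-1 and 35.4 and 33.6 with siLINC01534-2. It was lower with siLINC01534-1 (-0.48, adjusted p = 0.00184), and its log2 change with siLINC01534-2 was -0.07 (adjusted p = 0.435).

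CTH, which releases cysteine from cystathionine (chr1:70876901-70905534), had 5.14 and 5.08 FPKM in parent cells, 9.12 and 9.16 with siLINC01534-1 and 4.92 and 4.60 with siLINC01534-2. The siLINC01534-1 libraries stood apart, and both siLINC01534-2 libraries were just below parent. CTH rose 1.79-fold with siLINC01534-1 (log2 change 0.73 ± 0.06, adjusted p = 5.42e-04), changed by -0.09 ± 0.06 with siLINC01534-2 (adjusted p = 0.354), and differed by 0.82 ± 0.06 between the siRNAs (adjusted p = 5.11e-04). Its call for the mean of both siRNAs was lost without the second parent library (adjusted p = 0.0558). GLUL, glutamine synthetase, had 19.9 and 19.4 FPKM in parent cells, 16.0 and 15.4 with siLINC01534-1 and 21.9 and 21.6 with siLINC01534-2. GLUL fell with siLINC01534-1 (-0.31, adjusted p = 0.00320) and lay above parent with siLINC01534-2 by a log2 change of 0.14 that did not pass (adjusted p = 0.0700). ALDH18A1 and PYCR1, which make proline from glutamate, were at 48.5 to 58.5 and 182 to 204 FPKM and passed against parent in no contrast.

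With siLINC01534-1, 13 of the 30 genes were higher and 9 lower (21.8% and 24.5% of all tested genes), and with siLINC01534-2, 8 were higher and 4 lower (11.1% and 11.8%). Both counts use the same parent libraries, and the 12 genes past the threshold with siLINC01534-2 became 7 without the second parent library or the second siLINC01534-2 library, where the share of all tested genes called went from 22.8% to 7.02% and 7.29%. In the direct test of siLINC01534-1 against siLINC01534-2, 13 genes were higher and 7 lower, where 19.5% and 22.3% of all tested genes were. The 7 lower were GOT1, SLC1A3, SLC36A4, GLUL, SLC1A5, BCAT2 and MTHFD1. The largest differences in the other direction were those of SLC6A9 (1.00), CTH (0.82), PSAT1 (0.60), ASNS (0.58) and MTHFD2 (0.58). By class, the median log2 change with siLINC01534-1 was 0.31 for the SLC transporters, 0.10 for the other enzymes and 0.06 for the serine and one-carbon genes, and with siLINC01534-2 it was 0.23, 0.02 and -0.14. The medians of all tested genes were 0.00 in both contrasts.

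**Figure D4:**
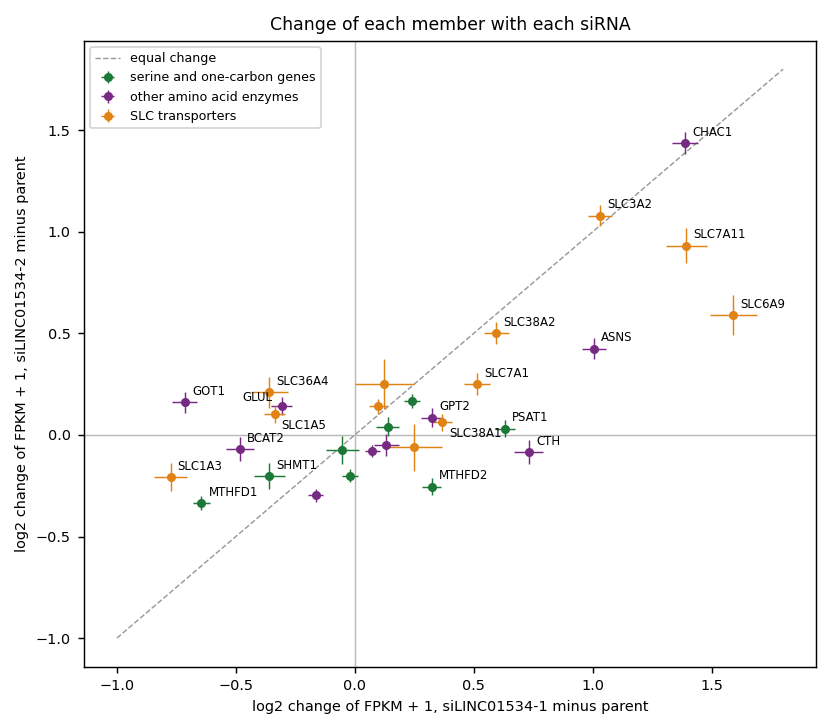
Log2 change of FPKM + 1 with siLINC01534-1 (horizontal) and with siLINC01534-2 (vertical) against the same 2 parent libraries, for the 30 tested genes. Bars are standard errors, colours mark the classes and the dashed line marks equal change; CHAC1 and SLC3A2 lie on or near the line, SLC6A9, ASNS, PSAT1 and CTH lie to its lower right, and GOT1 lies in the upper left.

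Genes of the same pathways outside the 33 were counted from further lists, drawn up by role with earlier results of these data known. Of 20 tested genes of the folate and methionine cycle, limma called 0 higher and 8 lower over both siRNAs (at an unadjusted p under 0.05 also 0 and 8), with a median log2 change of -0.11. The largest decreases were those of MTAP, which salvages methionine (-0.38, adjusted p = 8.46e-04), and TYMS, which makes thymidylate (-0.38, adjusted p = 0.00217). These stand beside the decreases of MTHFD1 and SHMT1 in the same cycle. Among 24 tested genes of other amino acid metabolism 7 were higher and 4 lower. The 2 subunits of the enzyme that limits glutathione synthesis led the increases, GCLM with 13.4 and 13.2 FPKM in parent cells, 34.8 and 36.7 with siLINC01534-1 and 17.4 and 19.4 with siLINC01534-2, and GCLC with 25.1 and 25.6, 42.5 and 43.1 and 52.6 and 55.3 FPKM. Their log2 changes were 0.90 and 0.90, followed by SDSL, a serine dehydratase relative, at 0.56. The largest decreases there were DBT, a subunit of the branched-chain keto acid dehydrogenase (-0.43), CAD, which starts pyrimidine synthesis (-0.34), and IVD of leucine breakdown (-0.23). Among 17 tested other carriers 4 were higher and 3 lower. SLC43A2 (0.56), SLC38A9 (0.40) and SLC38A6 (0.39) led the increases, and SLC7A2, another carrier of basic amino acids (-0.71), SLC25A22 (-0.36) and SLC25A12 (-0.25) the decreases. For SLC25A22 the log2 change was -0.81 with siLINC01534-1 and 0.09 with siLINC01534-2 (adjusted p = 0.334). In all, 11 of 61 were higher (18.0%) and 15 lower (24.6%), close to the shares over all tested genes given above, and the count of 26 became 13 without the first parent library and 15 without the second, where 20.1% and 18.2% of all tested genes were called.

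ATF4, the factor named above, had 349.7 and 350.0 FPKM in parent cells, 567 and 574 with siLINC01534-1 and 386 and 378 with siLINC01534-2. Its messenger RNA rose by 0.70 with siLINC01534-1 and by 0.13 with siLINC01534-2 (adjusted p = 8.52e-05 and 0.0341). The part of its level in the changes of the members was not tested. NFE2L2, a regulator of the glutathione and cystine genes, had a log2 change of 0.20 for the mean of both siRNAs (adjusted p = 0.0139), and MYC one of 0.08 (adjusted p = 0.111). For NFE2L2 it was 0.14 with siLINC01534-1 (adjusted p = 0.0592) and 0.27 with siLINC01534-2 (adjusted p = 0.0155). For MYC it was 0.14 with siLINC01534-1 (adjusted p = 0.0265) and 0.01 with siLINC01534-2 (adjusted p = 0.799).

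The promoters of the members were searched for the element of the amino acid response, written TGATGNAA, on both strands of the RefSeq windows that run from 250 bases before to 50 bases after a start (GRCh38.p14). The windows hold 26 of the 33 genes (78.8%), which is too few for a check of the whole list, and 11 of the 26 had a match (42.3%), where 4.46% of all 27305 genes with a window and 2.42% of the tested genes with one did. By class these were 6 of 11 SLC transporters, 4 of 9 other enzymes and 1 of 6 serine and one-carbon genes. Many members are known targets of this response, so a share above that of all genes can follow from the choice of list. It says nothing about the changes in these libraries. Of members with a window, a match was held by 5 of 11 that were higher for the mean of both siRNAs. It was also held by 2 of 5 that were lower and by 3 of 8 that did not pass. Against parent, the same counts were 5 of 11, 3 of 8 and 2 of 5 with siLINC01534-1. They were 4 of 7, 0 of 3 and 6 of 14 with siLINC01534-2. The stretches around the match are shown for genes that went different ways, to let the letters be compared. Capitals mark the match, or its reverse complement where the match is on the other strand.
ASNS promoter, chr7:97872458-97872487, minus strand: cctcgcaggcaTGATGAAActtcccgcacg
CHAC1 promoter, chr15:40953251-40953280, plus strand: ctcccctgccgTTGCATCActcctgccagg
SLC3A2 promoter, chr11:62881725-62881748, plus strand: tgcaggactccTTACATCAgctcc
SLC7A1 promoter, chr13:29595663-29595692, minus strand: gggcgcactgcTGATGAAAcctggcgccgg
SLC38A1 promoter, chr12:46266502-46266531, minus strand: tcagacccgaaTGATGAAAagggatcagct
GOT1 promoter, chr10:99430804-99430833, minus strand: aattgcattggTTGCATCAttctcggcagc
SLC1A3 promoter, chr5:36596357-36596386, plus strand: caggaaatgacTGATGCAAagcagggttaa
SLC1A5 promoter, chr19:46784893-46784922, minus strand: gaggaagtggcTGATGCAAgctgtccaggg

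ASNS, CHAC1, SLC3A2, SLC7A1 and SLC38A1 rose for the mean of both siRNAs, while SLC1A3 and GOT1 were lower for it and SLC1A5 was lower with siLINC01534-1. The letters differ at the open position of the motif: ASNS, SLC7A1 and SLC38A1 read TGATGAAA, SLC3A2 reads TGATGTAA, and CHAC1, GOT1, SLC1A3 and SLC1A5 read TGATGCAA. The match lies 209 to 202 bases before the start in CHAC1, 198 to 191 in GOT1, 220 to 213 in SLC1A3 and 68 to 61 in ASNS. A match is not a measured binding site. No window was held for SHMT2, PSPH, PYCR1, ALDH1L2, GPT2, BCAT2 and SLC7A11.

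The siRNAs differed from each other in 20 of the 30 genes and in 41.8% of all tested genes. At a mean of at least 5 FPKM they differed in 19 of 27 members and in 48.6% of all genes. The 3′ untranslated regions (UTRs) were therefore searched for GAATAAA, the letters that pair with the seed (bases 2 to 8) of the siLINC01534-1 antisense strand. The seed of siLINC01534-2 was not searched. The longest coding transcript of each gene in the GENCODE annotation on GRCh37 was used. The end of this word, AATAAA, is also the common signal for polyadenylation, so many UTRs hold it near their end. The stretches below of MTHFD2 and SLC7A1 lie next to the annotated gene ends, chr2:74444692 and chr13:30083551. Those of the other genes shown lie farther from theirs. The counts below do not separate these kinds of site. A match was found in 8 of the 30 tested genes (26.7%), where 26.8% of all tested genes with a UTR had one. The members with a match had a median UTR length of 3942 bases and those without 779, so length moves with the match. SLC36A4 had 7 matches and the others 1 each, shown here for those described above, with the match in capitals.
MTHFD1 3′ UTR, chr14:64926689-64926718, plus strand: gacgttccacaGAATAAAaggaaacaagtt
GOT1 3′ UTR, chr10:101157050-101157079, minus strand: tttttatttaaGAATAAAagagtactttga
GLUL 3′ UTR, chr1:182352211-182352240, minus strand: tttataataagGAATAAAccccacctttat
SLC1A3 3′ UTR, chr5:36687485-36687514, plus strand: tctttaaggaaGAATAAAaaagaagaggtt
MTHFD2 3′ UTR, chr2:74444649-74444678, plus strand: tttgactttggGAATAAAcattgaaaattt
SLC7A11 3′ UTR, chr4:139085416-139085445, minus strand: gcttttgtatgGAATAAAttttggtgcaat
SLC7A1 3′ UTR, chr13:30083553-30083582, minus strand: tctgcaaattcGAATAAAttctatggcttc

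Of the 8 members with a match, 5 were lower with siLINC01534-1 than with parent (MTHFD1, GOT1, GLUL, SLC1A3 and SLC36A4) and 3 were higher (MTHFD2, SLC7A11 and SLC7A1). Their median log2 change was -0.33 with siLINC01534-1 and 0.15 with siLINC01534-2. The 22 members without a match had medians of 0.19 and 0.05. Over all tested genes with a match the median was -0.14 with siLINC01534-1, with 41.3% of them lower, and 0.01 with siLINC01534-2, whereas genes without a match had medians of 0.03, with 20.5% lower, and 0.00. Of the 7 members lower with siLINC01534-1 than with siLINC01534-2, 5 held the match and BCAT2 and SLC1A5 did not, and over all tested genes with a UTR 44.3% of those lower in this contrast held it. PHGDH, CHAC1, SLC3A2 and SLC38A2, higher with each siRNA and with no called difference between them, held no match. Neither did 73.2% of all tested genes with a UTR. The part of the match, or of UTR length, in these differences was not tested.

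**Figure D5:**
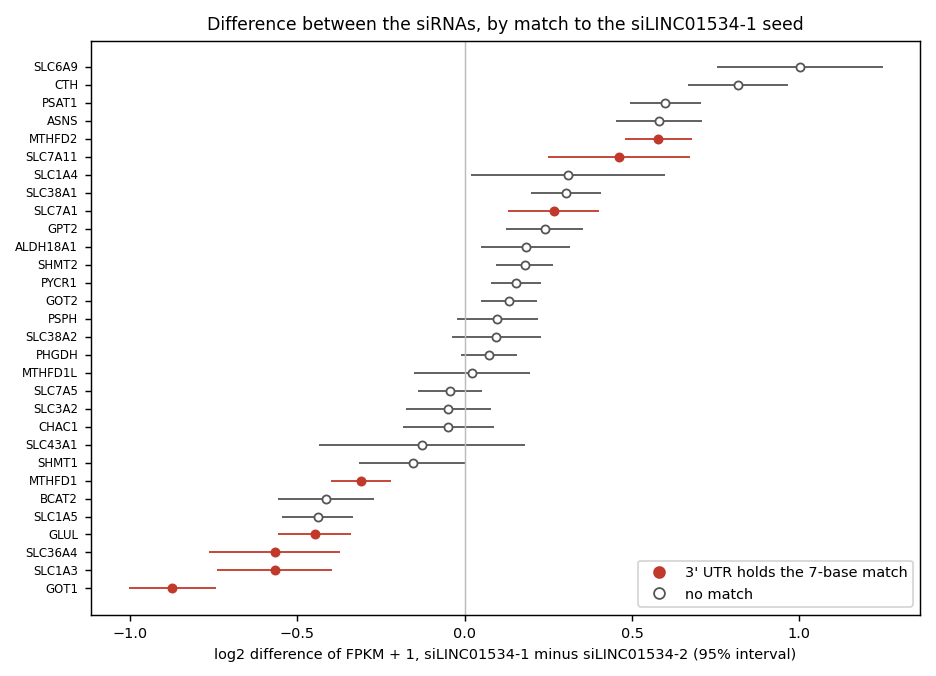
Log2 difference of FPKM + 1 between siLINC01534-1 and siLINC01534-2 for the 30 tested genes, sorted, with 95% intervals. Filled red points are the 8 genes whose 3′ UTR holds the 7-base match and open points the other 22; 5 of the 7 genes past the threshold on the lower side are red, as are MTHFD2, SLC7A11 and SLC7A1 on the higher side.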

How the data were processed

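RNA from 6 libraries of HCT116 cells was analysed, 2 per group by the labels. The study's methods describe cultures in triplicate and another extraction kit. Per the labels, a stranded mRNA kit was used, and the submitters' processing notes name TopHat2 2.0.13, Bowtie2 2.2.3, SAMtools 0.1.19, Cufflinks 2.2.1 and hg19. The authors deposited FPKM from Cuffnorm for 26255 gene symbols. The counting strand and the annotation are not given in the sources used here.

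From the deposited FPKM, log2(FPKM + 1) was tested with limma 3.58.1 in R 4.3.3 (1 mean per group, all 6 libraries, eBayes with a trend, two-sided) for the 12203 genes that averaged at least 1 FPKM, with Benjamini-Hochberg adjustment over all of them. Folds are ratios of mean FPKM. The script was tested on simulated data. The genes described in full were the 12 with the largest called change for the mean of both siRNAs and those called in opposite directions, with the rest given shorter. Members and lists were chosen with earlier results of these data known. Read depth was estimated from steps between low values, for lack of counts. Alternatives were the pseudocount, the filter, 2 scalings, a replicate block, the prior, the groups in the fit and leaving out each library. Python 3.11.15 with pandas 2.3.3 was used for the rest. Some genes of the wider lists are counted but not reported by name here.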

Additional observations from a re-analysis of the deposited data

Results flagged for a closer look

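The difference between the siRNAs, tested directly as siLINC01534-1 minus siLINC01534-2 on log2(FPKM + 1), passed an adjusted p of 0.05 for 20 of the 30 tested genes. Of all 12203 tested genes 41.8% passed, and of those with a mean of at least 5 FPKM 48.6% did. Among the serine and one-carbon genes it was 0.60 for PSAT1, 0.58 for MTHFD2, 0.18 for SHMT2 and -0.31 for MTHFD1. Among the other enzymes it was 0.82 for CTH, 0.58 for ASNS, 0.24 for GPT2, 0.18 for ALDH18A1, 0.15 for PYCR1, 0.13 for GOT2, -0.41 for BCAT2, -0.45 for GLUL and -0.87 for GOT1. Among the transporters it was 1.00 for SLC6A9, 0.46 for SLC7A11, 0.30 for SLC38A1, 0.27 for SLC7A1, -0.44 for SLC1A5, -0.57 for SLC36A4 and -0.57 for SLC1A3. Of these differences, 13 held with each of the 6 libraries left out in turn. ALDH18A1 lost its call in 5 of the 6 fits (adjusted p up to 0.154), GOT2 in 4 (up to 0.0982), PYCR1, SLC7A11 and SLC7A1 in 3 (up to 0.0727), and SHMT2 and GPT2 in 2 (up to 0.0603). For PYCR1 and ALDH18A1 neither siRNA passed against parent.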

How the results depend on the processing

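Over the alternatives run, the log2 changes of single genes gave 1543 values with the same direction and side of the threshold, 98 that no longer passed, 14 that newly passed and 13 that reversed. With the siRNA libraries as 1 group, 4 members and 2 genes of the wider lists passed, as did 2.96% of all tested genes. With the filter at a mean of 5 FPKM, 21 of 27 members passed with siLINC01534-1, where 53.7% of all genes did. With siLINC01534-2 that filter gave 14 of 27, where 30.5% of all genes passed. The SLC transporter median moved to 0.27 with a pseudocount of 0.1 and to 0.38 at a mean FPKM of at least 5, the serine and one-carbon median to -0.0488 without a filter, and with upper quartile scaling the latter was 0.0169 and that of the other enzymes 0.0508. Upper quartile scaling also reversed PYCR1 for the mean of both siRNAs (0.0289), SHMT2 with siLINC01534-1 (0.0321) and SLC7A5 between the siRNAs (0.0005).

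When 1 library at a time was dropped, the members past the threshold ranged from 12 to 19 for the mean of both siRNAs, 20 to 23 with siLINC01534-1, 7 to 11 with siLINC01534-2 and 14 to 19 between the siRNAs, and the genes of the wider lists from 13 to 24. The count of 7 with siLINC01534-2 came without the second parent or the second siLINC01534-2 library. The medians ranged from 0.17 to 0.26 for the SLC transporters, 0.0065 to 0.03 for the other enzymes and -0.03 to 0.0018 for the serine and one-carbon genes, and 4 members stayed past 2-fold. In these fits a group with 1 library left was assumed to vary like the others. Among all tested genes, fewer passed in each of these fits than with no library left out, in every contrast. Single genes that changed sign, each with an adjusted p above 0.05, ranged from -0.009 to 0.0906 (PSPH), -0.0102 to 0.0726 (PSAT1) and -0.1181 to 0.0199 (ALDH18A1) with siLINC01534-2, from -0.0118 to 0.0069 (PYCR1) for the mean of both siRNAs, from -0.0479 to 0.0062 (SHMT2) and -0.1313 to 0.0254 (MTHFD1L) with siLINC01534-1, and from -0.0574 to 0.0994 (MTHFD1L) and -0.1021 to 0.0045 (SLC3A2) between the siRNAs.

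The labels link libraries across groups only by replicate number. Deviations from the group means of libraries with the same number correlated at 0.114, 0.027 and -0.0456 between groups. As each group has 2 libraries, these values cannot show whether such libraries shared a batch. With the number as a replicate block, 18 members and 25 genes of the wider lists passed for the mean of both siRNAs. Of all tested genes 31.9% did. There were 22 members past the threshold with siLINC01534-1 (41.9% of all tested genes), 10 with siLINC01534-2 (16.3%) and 19 between the siRNAs (36.4%). The cause of these moves was not tested. Genes near 1 FPKM rest on few reads, so the lack of a call for SLC1A4 and SLC43A1 says little.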
